A study of Rattus norvegicus with 8 samples.

Results

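The adhesion G protein-coupled receptors (GPCRs) and the teneurin and FLRT proteins that bind some of them were followed in rat oligodendrocyte progenitor cell (OPC) cultures given PBS or IL-4. The members were chosen by gene symbol: every gene of the array whose symbol starts with Adgr, and the genes Tenm1 to Tenm4 and Flrt1 to Flrt3. Described here are 20 genes of the 15037 with a single symbol in the array's probe table. The family was selected on measured values of this same comparison, the rise of 1 receptor gene with IL-4, which is in no count below. Of the family genes that RefSeq names in rat, 14 were not analysed here, Adgrg6 and Tenm1 among them.

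OPCs were prepared by differential attachment from the brains of Sprague Dawley pups of both sexes, postnatal day 1 to 2, after shaking meant to remove microglia, and were kept in serum-free medium, to which the methods add PDGF and bFGF. The cultures received PBS (4 arrays) or IL-4 at 20 ng/mL (4 arrays) for 3 d, and the methods speak of 4 biologic replicates per condition without saying whether each came from a separate litter. RNA of each whole culture was measured on an Affymetrix Clariom S rat array. Values are log2 RMA signals, on which a difference of 1 is a 2-fold change, and the array medians lay between 6.13 and 6.16.

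Adhesion GPCRs carry a very long extracellular part that holds on to neighbouring cells or matrix, joined to a membrane-spanning part that signals through G proteins. Most cut themselves just outside the membrane, and the stub that is then exposed can act as a tethered agonist. Latrophilins on one cell bind teneurins and FLRT proteins on another, a pairing best known from synapses. In the oligodendrocyte lineage of mice and zebrafish, Adgrg1 (GPR56) is known to keep precursors dividing, and in mice loss of Tenm4 leaves central axons poorly myelinated.

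Of the 20 members tested, 3 were higher with IL-4, 6 were lower and 11 did not pass limma at an adjusted p under 0.05. All 3 that rose are teneurins, and all 6 that fell are receptors. Of all 23188 probe sets 12% were higher, against 3 of the 20 members, and 19.7% were lower, against 6 of the 20. In either direction 31.6% of all probe sets passed, so that by these counts the members lie near the background. With the added demand of more than a 2-fold change, 0 members were higher (2.16% of all probe sets) and 2 were lower (2.34%), Adgre1 and Adgrg2. Before adjustment, limma's p was under 0.05 for 4 members with a positive and 7 with a negative difference. All 4 IL-4 arrays lay above all 4 PBS arrays for 3 members (12.2% of all probe sets) and below them for 7 (20.6%). The median log2 difference was -0.22 over the 20 members and -0.068 over all probe sets.

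Dim probe sets need a separate reading. The means of 1057 olfactory receptor genes, which these cells are not known to use, had a median of 4.05 and a 95th percentile of 5.41 on the log2 scale, and 14.7% of them passed as higher and 11.4% as lower. Of the 20 tested members, 7 lay under 5.41 with both treatments (Adgrl4, Adgre4, Adgrf5, Adgrg2, Adgrg7, Tenm2 and Tenm4), 1 lay under it with IL-4 alone (Adgre1) and 12 lay above it. Among the olfactory receptor genes the absolute log2 difference had a 95th percentile of 0.84. The differences of Adgrg7, Tenm2 and Tenm4 are within that value, and that of Adgrg2 is beyond it.

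**Figure D1:**
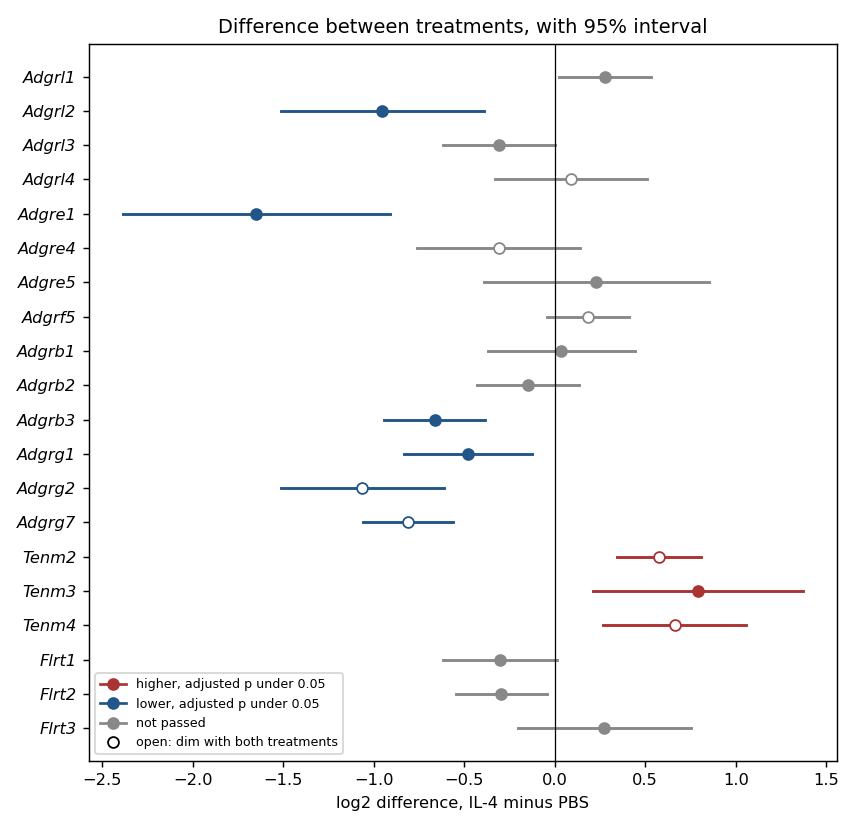
Log2 difference between IL-4 and PBS for each member, with its 95% interval from limma. Colours mark members higher, lower or not passed, and open circles mark members under 5.41 with both treatments. Intervals of the 6 receptors that fell and the 3 teneurins that rose lie wholly on one side of 0, as do those of Adgrl1 and Flrt2, which did not pass after adjustment.

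The promoters of 17 of the 20 members are in the RefSeq table (GRCr8), each as 250 bases before and 50 after the annotated start, including all 9 that passed the test. They are shown because IL-4 acts on genes through STAT6, whose preferred site is TTC and GAA parted by any 4 bases, while other STATs mostly bind TTCNNNGAA, with 3 bases between. Each motif reads the same on either strand, so that both strands were searched. The wider motif occurs in 0 of the 17 and in 7.28% of all 33469 promoters in the table. TTCNNNGAA occurs in 3 of the 17 and in 8.87% of all promoters. The 3 are those of Adgre1 (chr9:2329190-2329489, plus strand), Adgrg7 (chr11:57282654-57282953, plus strand) and Adgrg2 (chrX:38179786-38180085, minus strand), all among the receptors that fell, and the match is in capitals below. It starts 5 bases before the annotated start in Adgre1, 19 before it in Adgrg7 and at base 29 after it in Adgrg2. A match is a run of letters, and binding was not measured.
Adgre1: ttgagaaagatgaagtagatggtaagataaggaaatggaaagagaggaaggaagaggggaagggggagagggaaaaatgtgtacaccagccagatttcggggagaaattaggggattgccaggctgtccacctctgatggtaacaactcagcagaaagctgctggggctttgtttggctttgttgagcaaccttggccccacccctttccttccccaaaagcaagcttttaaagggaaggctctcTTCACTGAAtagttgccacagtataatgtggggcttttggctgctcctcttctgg
Adgrg7: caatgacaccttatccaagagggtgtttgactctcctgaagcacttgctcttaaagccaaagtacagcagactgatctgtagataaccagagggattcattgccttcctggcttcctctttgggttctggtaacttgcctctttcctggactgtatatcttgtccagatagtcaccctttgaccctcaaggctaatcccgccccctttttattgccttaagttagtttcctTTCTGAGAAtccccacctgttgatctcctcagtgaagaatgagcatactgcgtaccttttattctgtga
Adgrg2: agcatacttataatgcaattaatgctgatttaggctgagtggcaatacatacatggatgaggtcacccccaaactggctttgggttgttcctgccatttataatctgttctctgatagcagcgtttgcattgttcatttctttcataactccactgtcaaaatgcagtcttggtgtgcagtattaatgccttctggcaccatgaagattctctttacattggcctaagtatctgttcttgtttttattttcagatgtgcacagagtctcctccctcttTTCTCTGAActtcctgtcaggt

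Adgrg1, Adgrg2 and Adgrg7 were each lower with IL-4; they are not all the ADGRG genes of the rat, so this says nothing of the group as a whole. Adgrg1 (GPR56), the receptor known from dividing OPCs, had a signal of 11.61, 11.22, 11.78 and 11.06 on the PBS arrays and 10.87, 11.01, 10.84 and 11.03 on the IL-4 arrays. The groups are parted by only 0.03, and PBS arrays 2 and 4 lie closest to the IL-4 arrays. Adgrg1 fell by 0.48 on the log2 scale (standard error 0.16, adjusted p = 0.042), and this call was kept in only 2 of the 8 fits that left out 1 array (those without PBS array 2 or 4), with adjusted p from 0.013 to 0.10. It was also lost after quantile normalization. In RNA of a whole culture, fewer cells of a type and less RNA per cell cannot be told apart.

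Adgrg2 (GPR64), known from the epididymis, stood at 5.37, 4.30, 5.15 and 5.07 with PBS and at 4.02, 4.0, 3.91 and 3.71 with IL-4. PBS array 2 is the low one of its group, and the groups do not overlap. The log2 difference was -1.06 (standard error 0.20, adjusted p = 0.0034), in the dim range throughout. Adgrg7 (GPR128), another dim member, was even on the PBS arrays at 4.94, 4.80, 4.81 and 4.94 and lower on all IL-4 arrays at 4.09, 4.25, 3.94 and 3.97. Its log2 difference was -0.81 (standard error 0.11, adjusted p = 0.00060), and both genes passed in all 8 fits that left out 1 array.

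**Figure D2:**
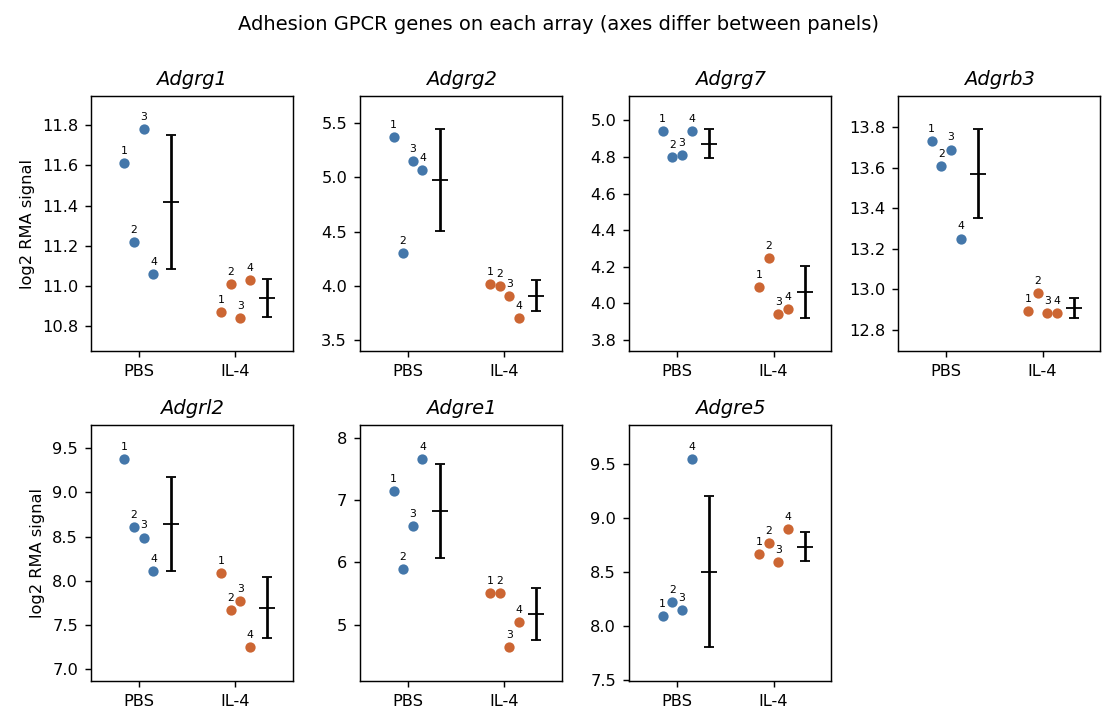
Log2 RMA signal of the 6 receptors that fell and of Adgre5 on each array, with a separate axis in each panel. Points are single arrays numbered by replicate, and bars show the mean ± SD of 4 arrays. IL-4 arrays lie below PBS arrays in the 6 panels of receptors that fell, and in Adgre5 PBS array 4 alone lies at 9.55.

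Among the ADGRE receptors, which leukocytes carry, Adgre1 fell and Adgre5 followed a single PBS array. Adgre1 encodes a surface antigen by which mouse macrophages are recognized. It stood at 7.14, 5.90, 6.59 and 7.66 on the PBS arrays and at 5.51, 5.51, 4.64 and 5.04 on the IL-4 arrays. PBS array 4 was highest and PBS array 2 lowest of the PBS arrays, and even array 2 lay above every IL-4 array. Its log2 difference was -1.65 (standard error 0.33, adjusted p = 0.0044), a 3.13-fold fall by the measured means that reaches the dim range with IL-4.

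The mean of 15 markers of microglia and macrophages did not run with Adgre1 across treatments. It was 9.13, 8.94, 8.84 and 10.36 on PBS arrays 1 to 4 and ranged from 9.65 to 9.77 with IL-4, above 3 of the 4 PBS arrays. Of these 15 genes, 6 rose, 2 fell (Cx3cr1, the fractalkine receptor, by 1.46 on the log2 scale, and the dim Tmem119) and 7 did not pass. Among the 6, Csf1r rose by 1.39, P2ry12 by 1.35 and Aif1 by 1.01 (adjusted p = 0.016, 0.0095 and 0.0092 from limma). Among the 7, Itgam stood at 6.28, 5.0, 4.73 and 7.11 with PBS and at 4.45 to 4.82, in the dim range, with IL-4. Its log2 difference was -1.15 (adjusted p = 0.062 from limma). The markers did not move together, and the part of these cells in the fall of Adgre1 was not tested. Without PBS array 4, the highest in both measures, Adgre1 had a log2 difference of -1.37 (adjusted p = 0.0082 from limma).

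Adgre5 (CD97), a receptor of leukocytes that binds CD55 and THY1, stood at 8.09, 8.22 and 8.15 on PBS arrays 1 to 3, at 9.55 on PBS array 4 and at 8.67, 8.77, 8.59 and 8.90 on the IL-4 arrays. The groups overlap through PBS array 4 alone. Its log2 difference was 0.23 (95% interval -0.39 to 0.85, adjusted p = 0.56), and without that array it was 0.58 (adjusted p = 0.0052), so 1 array decides this call. The same array holds the highest microglial marker mean, and the part this plays was not tested. Adgre4, a myeloid receptor of mice, was dim on all arrays, at 3.82 to 4.49 with PBS and 3.50 to 4.32 with IL-4, with a log2 difference of -0.31 (95% interval -0.76 to 0.14, adjusted p = 0.27).

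**Figure D3:**
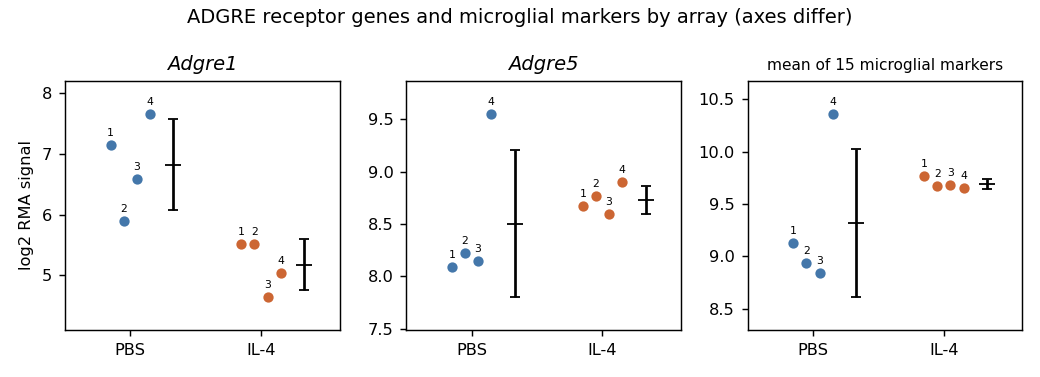
Log2 RMA signal of Adgre1 and Adgre5 and the mean of 15 microglial and macrophage markers on each array, with separate axes. Points are arrays numbered by replicate, and bars show the mean ± SD of 4. PBS array 4 is the highest point in every panel, and the IL-4 arrays lie lowest for Adgre1 only.

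Of the latrophilin genes, among them receptors of teneurins and FLRT proteins, Adgrl2 fell and the other 3 did not pass the test. Adgrl2 stood at 9.38, 8.61, 8.49 and 8.11 on the PBS arrays and at 8.09, 7.67, 7.77 and 7.25 on the IL-4 arrays. PBS array 4 and IL-4 array 1 nearly touch, 0.02 apart. The log2 difference was -0.95 (standard error 0.25, adjusted p = 0.016). It passed in all 8 fits that left out 1 array but not the methods' t-test, with an adjusted p of 0.077. That test is named in the paper's general statistics section, while for the arrays the paper names Transcriptome Analysis Console. Like Adgrl2, the mean of 11 neuronal markers was highest on PBS array 1 and lowest of the PBS arrays on array 4. It was 7.91, 7.52, 7.79 and 7.40 on PBS arrays 1 to 4 and ranged from 7.40 to 7.49 with IL-4. Of these 11 genes 3 rose, 3 fell and 5 did not pass, with a median log2 difference of 0.14. The mean with IL-4 was nonetheless below PBS arrays 1 to 3, so the direction depends on the measure. The part of these genes in the fall of Adgrl2 was not tested.

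Adgrl1, the first latrophilin found as a receptor of spider venom latrotoxin, was slightly above all PBS arrays (10.09 to 10.43) on every IL-4 array (10.52 to 10.58). Its log2 difference of 0.28 did not pass (95% interval 0.027 to 0.53, adjusted p = 0.086), while after quantile normalization it was 0.41 (adjusted p = 0.020). Adgrl3 overlapped between treatments, at 11.63, 11.54, 11.81 and 12 with PBS and 11.20 to 11.66 with IL-4, for a log2 difference of -0.31 (95% interval -0.62 to 0.0011, adjusted p = 0.12). Adgrl4 (ELTD1), a gene of blood vessels, was dim at 4.61 to 5.10 and 4.56 to 5.50 (log2 difference 0.09, 95% interval -0.33 to 0.51, adjusted p = 0.74). Of 8 endothelial markers, 6 lay under 5.41 with both treatments, among them Cdh5 and Vwf, while Pecam1, which leukocytes also carry, was higher with IL-4 (6.12 to 6.53) than with PBS (at most 5.29) (adjusted p = 5.2e-04 from limma). In all 2 of the 8 rose and 1 fell, and their mean was 4.21 to 4.36 with PBS and 4.51 to 4.61 with IL-4.

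The ADGRB receptors, named as inhibitors of brain angiogenesis, divided into 1 that fell and 2 with small differences. Adgrb3, a synaptic receptor that binds C1q-like proteins, stood at 13.73, 13.61, 13.69 and 13.25 on the PBS arrays and at 12.89, 12.98, 12.88 and 12.88 on the IL-4 arrays. Every IL-4 array was below the lowest PBS array, number 4. Adgrb3 fell by 0.66 on the log2 scale (standard error 0.13, adjusted p = 0.0032), or 1.58-fold, far above the dim range, and it passed in all 8 fits that left out 1 array. Adgrb1, which takes part in the engulfment of dying cells, ran from 7.45 to 8.15 with PBS and from 7.51 to 8.13 with IL-4 (log2 difference 0.04, 95% interval -0.37 to 0.44). Adgrb2 ran from 8.19 to 8.38 and from 7.98 to 8.42 (log2 difference -0.15, 95% interval -0.43 to 0.13). Adgrf5, a regulator of lung surfactant in mice, was dim on all 8 arrays, at 4.01 to 4.25 with PBS and 4.29 to 4.36 with IL-4 (log2 difference 0.18, 95% interval -0.043 to 0.41, adjusted p = 0.19 from limma).

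The 3 measured teneurins, large membrane proteins that serve as ligands of latrophilins, all rose, a pair of them (Tenm2 and Tenm4) in the dim range. Tenm3, known from the wiring of the visual system, is the one well above the dim range. It stood at 5.88, 7.47, 6.66 and 6.78 on the PBS arrays and at 7.40, 7.40, 7.58 and 7.58 on the IL-4 arrays. PBS array 1 is lowest, and PBS array 2 reaches the IL-4 arrays. The log2 difference was 0.79 (standard error 0.26, adjusted p = 0.040), and of the 8 fits that left out 1 array only the one without PBS array 2 kept the call (0.0050 to 0.090 over the 8). The mean of 9 markers of oligodendrocytes, among them Mbp, was also lowest on PBS array 1, at 14.22, and highest of the PBS arrays on array 2, at 15.63. With IL-4 it ranged from 15.66 to 15.79, and 5 of the 9 genes rose and 0 fell; their part in the rise of Tenm3 was not tested.

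Tenm2, the teneurin first isolated as a ligand of Adgrl1, was dim but tightly grouped, at 3.78, 3.83, 3.84 and 3.90 on the PBS arrays and 4.38, 4.45, 4.55 and 4.28 on the IL-4 arrays. The groups do not overlap. Its log2 difference was 0.58 (standard error 0.11, adjusted p = 0.0026), and it passed in all 8 fits that left out 1 array. Tenm4, the teneurin tied to myelination in mice, stood at 4.34, 4.24, 4.03 and 3.81 with PBS and at 5.12, 4.80, 4.31 and 4.84 with IL-4. IL-4 array 3 lies just below PBS array 1, and the others lie above. The log2 difference was 0.66 (standard error 0.18, adjusted p = 0.018), and the call was lost only without IL-4 array 1 among the fits that left out 1 array (adjusted p = 0.0505). By the methods' t-test neither Tenm4 nor Tenm3 passed (adjusted p = 0.063 and 0.13).

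None of the 3 FLRT genes, whose proteins bind latrophilins and UNC5 receptors, passed the test. Flrt2 came nearest, with all IL-4 arrays (5.54 to 5.76) below all PBS arrays (5.82 to 6.09), a log2 difference of -0.29 (95% interval -0.55 to -0.044, adjusted p = 0.070). Flrt1 ran from 7.12 to 7.55 with PBS and from 6.80 to 7.26 with IL-4 (log2 difference -0.30, 95% interval -0.62 to 0.013, adjusted p = 0.13). Flrt3 ran from 6.75 to 7.71 and from 7.23 to 7.90 (log2 difference 0.27, 95% interval -0.21 to 0.76, adjusted p = 0.36). Before adjustment limma gave Flrt2 alone among them a p under 0.05, with 0 in the other direction.

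**Figure D4:**
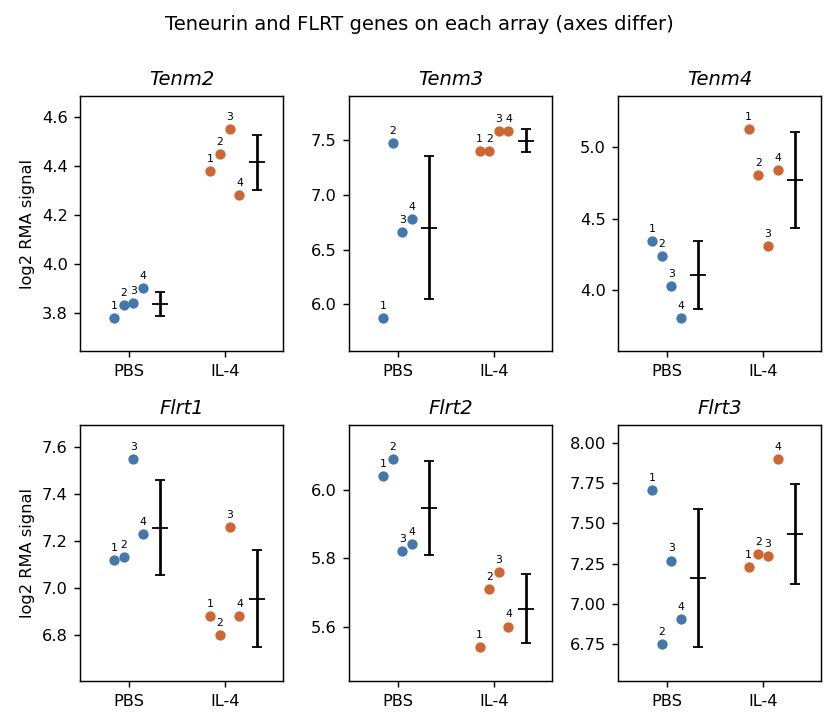
Log2 RMA signal of the 3 teneurin and 3 FLRT genes on each array, with a separate axis in each panel. Points are arrays numbered by replicate, and bars show the mean ± SD of 4. The IL-4 means are higher for all 3 teneurins, with no overlap for Tenm2 only, while the FLRT genes differ by at most 0.30 on the log2 scale.

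Other proteins that bind these receptors moved both ways. Of 23 listed binding partners 19 were measured: 4 rose and 6 fell, beside 12% and 19.7% of all probe sets, and 9 did not pass, with a median log2 difference of -0.078, beside -0.068 over all probe sets. The largest differences were -1.75 for Thy1, a partner of CD97, -1.09 for Col3a1, the collagen ligand of GPR56, 1.00 for Unc5b and -0.79 for Unc5d, netrin receptors that FLRT proteins bind (adjusted p = 0.017, 6.1e-04, 0.0045 and 0.0059 from limma). Col3a1 and Unc5d were dim with both treatments and Thy1 with IL-4. Thy1 ranged from 4.82 on PBS array 4 to 7.26 on PBS array 1. Unc5b went from 12.37, 13.43, 12.79 and 13.28 on the PBS arrays to 13.91 or more on every IL-4 array, with no overlap.

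A pair of ligands was named after their values had been seen, since their receptors fell. Col3a1, another ligand of GPR56, fell as its receptor did, so this pair does not stand for the list. Of the list's 4 rises, 2 were left with the methods' t-test and 2 to 4 in the fits that left out 1 array. Tgm2, the transglutaminase that binds GPR56, stood at 7.26, 7.28, 7.35 and 6.94 with PBS and at 8.02, 7.25, 8.0 and 7.87 with IL-4, where array 2 alone stayed in the PBS range (log2 difference 0.58, adjusted p = 0.031 from limma). C1ql1, a C1q-like ligand of Adgrb3, stood at 12.95, 14.15, 13.60 and 13.50 with PBS and at 14.15 to 14.42 with IL-4, a log2 difference of 0.67 (adjusted p = 0.033 from limma). The other listed C1q-like genes leaned the other way and did not pass. Their log2 differences were -0.08 for C1ql2, -0.28 for C1ql3 and -0.25 for C1ql4, and C1ql2 and C1ql4 were dim with both treatments. Cd55, the partner of CD97, was dim with both treatments (log2 difference 0.06, 95% interval -0.21 to 0.33).

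Of 20 measured G proteins and effectors, 2 rose and 1 fell, beside 12% and 19.7% of all probe sets, and 17 did not pass. The median log2 difference was -0.034. With quantile normalization 4 rose and 0 fell. Dock1, an activator of Rac downstream of Adgrb1, rose by 0.67 and the kinase Rock2 by 0.43 on the log2 scale (adjusted p = 0.0090 and 0.018 from limma). Arhgef12, a RhoA exchange factor driven by the G12 and G13 proteins, fell by 0.36 (adjusted p = 0.045 from limma), and 1 or more genes of the list fell in only 2 of the 8 fits that left out 1 array. For the G protein genes Gna12 and Gna13 themselves the log2 differences were -0.24 and 0.19, with 95% intervals of -0.47 to -0.0017 and -0.23 to 0.61.

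The CELSR receptors are adhesion GPCRs of planar cell polarity whose symbols the rule does not match. Of 11 measured genes of this list, 3 rose and 4 fell, beside 12% and 19.7% of all probe sets, and 4 did not pass (median log2 difference -0.21). Celsr2 went from 6.47, 5.94, 6.10 and 6.17 on the PBS arrays to 7.30, 7.58, 7.08 and 7.21 on the IL-4 arrays, which do not overlap and differ by 1.12 on average (standard error 0.15, adjusted p = 4.8e-04). Celsr3 fell by 0.49 on the log2 scale (standard error 0.17, adjusted p = 0.045), with IL-4 array 3 inside the PBS range. The polarity genes Prickle1, Vangl1 and Prickle2 had log2 differences of -0.72, -0.57 and -0.56 (adjusted p = 0.0026, 0.044 and 0.0076 from limma). Dvl1, dim with PBS, and Dvl3 went the other way, with log2 differences of 0.46 and 0.365 (adjusted p = 0.019 and 0.033 from limma). Celsr1 was not analysed here.

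PBS arrays were more spread than IL-4 arrays for 13 of the 20 tested members, and for 67.6% of all probe sets. Over these members the median SD was 0.23 with PBS and 0.17 with IL-4. Markers of OPCs and of oligodendrocytes were both above the dim range on these arrays. Of 9 OPC markers 0 were dim with both treatments, 1 rose, 2 fell (Sox10 among them) and 6 did not pass. Pdgfra stood at 15.07, 12.73, 14.04 and 14.17 on the PBS arrays and at 14.03 to 14.09 with IL-4 (SD 0.96 and 0.026). Cspg4 (NG2) ran from 6.46 to 8.88 with PBS and from 6.85 to 7.08 with IL-4. For both genes the spread was mainly among the PBS arrays, and its part in the calls was not tested. Olig2 lay between 15.71 and 16.33. Of the 9 oligodendrocyte markers 0 were dim as well, and Mbp lay between 19.30 and 19.82, so that these values do not show the cultures to hold progenitors only. Astrocyte markers had means of 9.03 to 9.44 with PBS and 9.48 to 9.77 with IL-4, but 3 of the 8 rose, 2 fell and the median log2 difference was -0.34. Pericyte and fibroblast markers had means of 5.25 to 5.34 and 4.77 to 5.0, with 1 of 8 higher and 3 lower.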

How the data were processed

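Total RNA of 8 rat OPC cultures (4 PBS, 4 IL-4) was hybridized to Clariom S rat arrays. Per the labels, the authors ran Affymetrix Expression Console, RMA and Transcriptome Analysis Console 4.0 with build rn6. The deposited log2 values of 23188 probe sets, given to 2 decimals, are background corrected, normalized between arrays and summarized; raw signals were not used, and RMA can compress differences of dim probe sets. Arrays carry no read depth, so their number limits the precision.

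The platform table gives 15049 probe sets a single symbol (15037 genes). No member had more than 1 probe set (0 of 20), and none shared its values with another probe set. IL-4 minus PBS was fitted with limma 3.58.1 (R 4.3.3; lmFit, eBayes, no trend), with Benjamini-Hochberg adjustment over all 23188 probe sets; 95% intervals use the moderated standard error. Promoter sequences are RefSeq's (GRCr8). The limma script was tested on simulated data. Tables used Python 3.11.15 and pandas 2.3.3.

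The members and lists were chosen with earlier results of these data known. The naming rule takes all members, the genes next to the ADGRG cluster and up to 4 genes with the largest difference at an adjusted p under 0.05 in each list; 1 member and the genes next to that cluster are not reported here, and Tgm2, C1ql1, Cd55, Gna12, Gna13 and single markers were added later. Alternatives were quantile normalization, median subtraction, a filter at the 40th percentile of mean signal, an intensity trend with a robust prior, weights per array, the replicate block, a single averaged IL-4 sample, the methods' t-test, each array left out and a 2-fold threshold.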

Additional observations from a re-analysis of the deposited data

Results flagged for a closer look

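In each group of 4 arrays the array farthest from the rest was compared with the group's whole range, for 20 genes and 40 groups, of which 5 stood out and about 1 in 20 would by chance. Adgre5 was 9.55 on PBS array 4 and 8.09 to 8.22 on the other PBS arrays. Adgrb1 was 7.51 on IL-4 array 2 and 8.03 to 8.13 on the others. Adgrb2 was 8.42 on IL-4 array 1 and 7.98 to 8.03 on the others. Adgrb3 was 12.98 on IL-4 array 2 and 12.88 to 12.89 on the others, a gap of under 0.1 that left every IL-4 array below the PBS arrays. Flrt3 was 7.90 on IL-4 array 4 and 7.23 to 7.31 on the others. Of the 5, only Adgre5 had a call that turned on the array that stood out.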

How the results depend on the processing

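The counts of members higher (3) and lower (6) were, with the 4 IL-4 arrays averaged to 1 sample, 0 and 0, as were all the counts of the 3 pathway lists (0). That setting leaves a lone IL-4 value, taken to have the spread of the PBS group. With the methods' t-test 1 member was higher and 4 were lower (Tenm3, Tenm4, Adgrl2 and Adgrg1 being lost), and at more than 2-fold 0 and 2. With dim probe sets left out, which removed 7 of the 20 members, 1 was higher (Tenm3) and 4 were lower. Leaving out each array in turn gave 1 to 3 members higher, with 1 only without IL-4 array 1, and 5 to 6 lower. For binding partners these ranges were 2 to 4 higher (2 without PBS array 1 or 4 or IL-4 array 1, 3 or 4) and 4 to 6 lower, and the t-test gave 2 and 3. For G proteins and effectors they were 1 to 2 higher (1 without IL-4 array 1) and 0 to 2 lower (2 without PBS array 2, 1 without PBS array 4, 0 without any other). In that list quantile normalization gave 4 higher and 0 lower, and the number lower was 3 without dim probe sets, 2 with the intensity trend, 2 with array weights, 3 with the t-test and 0 with the replicate block. For the CELSR and polarity list the ranges were 1 to 3 higher (1 without IL-4 array 2 or 3) and 2 to 4 lower (2 without PBS array 3 or 4 or IL-4 array 2 or 4), and the t-test gave 2 lower. The cause of these changes was not tested.

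Whether same-numbered arrays came from a shared preparation is not known. Deviations of same-numbered arrays from their group means correlated at -0.018 to 0.0059. This cannot decide the question, because a low correlation does not exclude a shared preparation. With the replicate block 3 members were higher and 5 lower, Adgrg1 being lost (adjusted p = 0.068). No member that passed changed direction under any of these settings. The alternative of a gene's dimmest probe set gave no value, since no member and no gene of the lists had more than 1. Over all probe sets the higher calls were 37.8% of calls and 47.8% after quantile normalization.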
